A study of Sus scrofa with 2 samples.

Results

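Nuclear genes for subunits of the respiratory complexes I to III, other than the NDUFA group, were followed in the longissimus dorsi muscle (LM) of the Shaziling and the Yorkshire pig. They were taken as the unigenes whose match in the nr protein database carries a RefSeq accession of a pig gene named NDUFB, NDUFC, NDUFS, NDUFV or UQCR, or of SDHA, SDHB, SDHC, SDHD or CYC1. The most abundant unigene represented a gene. By this rule 12 genes were found, through 13 unigenes, among 4484 genes that received a pig symbol and 65535 unigenes in the table. Complex I provided 10 of them (NDUFB2, NDUFB5, NDUFB8, NDUFB11, NDUFS1, NDUFS3, NDUFS6, NDUFS8, NDUFV1 and NDUFV3) and complex II provided 2 (SDHB and SDHC). No gene of complex III was reached, so the values below describe complexes I and II. The list of RefSeq genes used here holds 30 genes of the rule, and the other 18, such as NDUFB1, NDUFC1, NDUFV2, SDHA, SDHD, UQCRB and UQCR10, were not analysed here. Of 17244 unigenes with a RefSeq match, 5698 had an accession of a pig gene, and a gene whose unigene was matched to the protein of another species or to an accession outside that list was not reached.

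The RNA came from male pigs slaughtered at 25 days of age, 3 full-sibs of the Shaziling breed and 3 of the Yorkshire breed, and no treatment is named for either group. Shaziling is an indigenous fat-type breed of China and Yorkshire a lean, fast-growing one. The table has 1 column of reads for each breed, named for 3 animals, and it was taken as 1 library. No spread between pigs could therefore be computed, none of the differences has a replicate check, and breed cannot be told apart from litter. Titles and column names give the breeds used here. A further field of the sample records is the other way round, with the indigenous type entered for Yorkshire and the lean type for Shaziling. This conflict was not resolved here, and if the samples were exchanged, all directions given below would turn.

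Complex I takes electrons from NADH and passes them to ubiquinone in the inner mitochondrial membrane, pumping protons as it does so. Its peripheral arm holds a part that oxidises NADH and a part that reduces ubiquinone, and its membrane arm carries out the pumping around subunits encoded by mitochondrial DNA. Complex II is succinate dehydrogenase, an enzyme of the tricarboxylic acid cycle that feeds electrons from succinate to ubiquinone and is encoded wholly by nuclear genes. In skeletal muscle, these enzymes are more abundant in oxidative than in glycolytic fibers.

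Levels are given as deposited RPKM, the reads of a unigene scaled to its length in kb and to the size of the library. The totals behind them were 33949238 reads for Yorkshire and 28305925 for Shaziling, and the members received 0.0609% and 0.0796% of these, with 142 to 7609 reads per gene and library. All unigenes in the table together held 87.0% of the Yorkshire total but 72.7% of the Shaziling total. A pair of unigenes named for genes of mitochondrial DNA took 46.4% of all Yorkshire reads but 11.8% of those of Shaziling, and the RPKM of all other genes moves with that share. For 640 named genes whose RPKM reached 10 in both breeds, the log2 ratio (Shaziling to Yorkshire) had a median of 0.34. Log2 ratios of the members are also given relative to this median, since the relative value is the same under any scaling of the libraries. With totals that leave this pair out, all log2 ratios shifted by -0.72 and the median became -0.38.

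Of the 12 genes, 10 (83.3%) had the greater RPKM in Shaziling and 2 in Yorkshire, where 75.4% of all 4484 named genes were also greater in Shaziling. With totals that leave out the mitochondrial unigenes, it was 7 of the 12. In a piece of whole muscle, fewer cells of a type and less RNA per cell cannot be told apart. A gene was called different when its RPKM ratio was at least 2 and its reads passed a false discovery rate of 0.05 in an exact binomial test over all unigenes, which compares the libraries and not the breeds. Where a library had 0 reads, the ratio was taken with 3 reads in their place. Of the members, 6 were called higher in Shaziling (NDUFB2, NDUFB8, NDUFS8, NDUFV1, NDUFB11 and NDUFS6), all of complex I, and 0 were called higher in Yorkshire. As background, 35.3% of the 4484 named genes were called higher in Shaziling and 3.17% in Yorkshire, and among all unigenes 24.1% and 7.08%. All members had an RPKM of at least 10 in one library, and of the 1069 named genes of which this holds 35.2% and 3.27% were called. The members had a median log2 ratio of 0.998. The median was 0.34 over the 640 named genes, 0.62 over the 1069 and 0.68 over all 4484, and 9, 8 and 8 of the 12 members lay above these. NDUFB2 and NDUFV3 are not among the 640, since their Yorkshire RPKM was under 10. The 10 complex I genes had a median of 1.33. With totals that leave out the mitochondrial unigenes, 3 members (NDUFB2, NDUFB8 and NDUFS8) were called higher in Shaziling and SDHB was called higher in Yorkshire, beside 16.7% and 17.0% of the 1069 genes and 17.2% and 14.9% of all named genes.

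NDUFB2, NDUFB8 and NDUFS8 were called higher in Shaziling under every other threshold and scaling tried. At a fold of 1.5, NDUFB5 and NDUFV3 joined the 6 calls and SDHB was called higher in Yorkshire, where 46.6% and 6.82% of named genes were called. At a fold of 3, NDUFS6 dropped out, against shares of 21.8% and 1.09%. NDUFS6 was also lost, and SDHB gained in Yorkshire, with equal RPKM sums (23.2% and 8.01% of named genes), with a median log2 ratio of 0 (25.1% and 6.94%) and with TMM factors (23.1% and 8.10%). In the test on rounded RPKM values, the calls without NDUFS6 remained, 5 members. It called 2.65% of named genes higher in Shaziling and 0.134% in Yorkshire. The median RPKM in Yorkshire and Shaziling was 2.31 and 3.75 over all named genes but 23.5 and 55.1 over the members. A test on rounded RPKM can hardly call a gene of low RPKM, so these shares are no like background for the members. Its share among named genes at the level of the members was not computed. The same 6 calls were made at a false discovery rate of 0.01 (32.9% and 2.63%), with the fold alone (39.3% and 4.33%), with pseudocounts of 1 (22.9% and 1.32%) and 0.1 (34.6% and 3.03%), with the longest unigene (36.3% and 2.97%), with summed unigenes (36.4% and 2.74%), with unigenes of 300 bp or longer (35.8% and 3.11%) and with versioned accessions (35.0% and 3.01%), by which NDUFV3 was not reached.

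**Figure D1:**
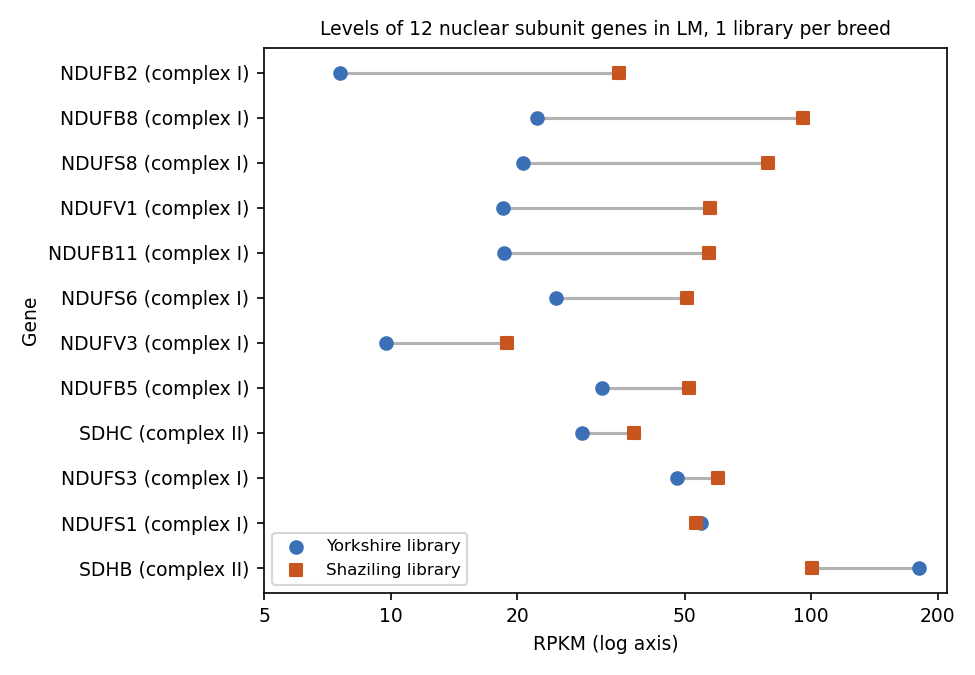
RPKM of each of the 12 genes on a log axis in the Yorkshire library (circles) and the Shaziling library (squares), ordered by the ratio between them, 1 library per breed and without error bars. Levels of the 12 genes run from 7.58 to 180.0 in Yorkshire and from 18.9 to 100.6 in Shaziling, and SDHB is the highest in both libraries and the gene most above its Shaziling level in Yorkshire.

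The NADH-oxidising part of complex I was represented by 4 genes, of which 2 were called higher in Shaziling, beside 35.2% of the 1069 named genes. With totals that leave out the mitochondrial unigenes, 0 of the 4 were, beside 16.7%. NDUFV1, the flavoprotein that binds FMN and accepts the electrons of NADH, was covered by 952 Yorkshire reads (RPKM 18.5) and 2468 Shaziling reads (RPKM 57.5). Its ratio, given here and below as Shaziling over Yorkshire, was 3.11 (95% confidence interval 2.88 to 3.35). Intervals are exact intervals on the reads and cover counting error only. NDUFS1, the large iron-sulfur subunit that receives electrons from NDUFV1, had 4942 Yorkshire reads (RPKM 54.6) and 4017 Shaziling reads (RPKM 53.2). The NDUFS1 ratio of 0.975 had an interval of 0.935 to 1.02, and it was the only member whose interval included 1. These genes for core subunits of the same electron path stood in different proportion in the libraries, with NDUFS1 at 2.95 times the RPKM of NDUFV1 in Yorkshire and at 0.925 times in Shaziling. The ratio of NDUFV1 to NDUFS1 differed 3.19-fold between the libraries (95% confidence interval 2.93 to 3.48), a value that does not depend on the library totals.

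Genes for accessory subunits of this part lay between NDUFV1 and NDUFS1. NDUFS6, a zinc-binding subunit, was read 686 times in Yorkshire (RPKM 24.7) and 1174 times in Shaziling (RPKM 50.8). Its ratio of 2.05 (95% confidence interval 1.87 to 2.26) was just past the fold of 2, and it was below 2 under each of the 4 other scalings of the libraries. NDUFV3 had the lowest level of all members in Shaziling, with RPKM 9.75 for Yorkshire (520 reads) and 18.9 for Shaziling (842 reads). Its ratio of 1.94 (95% confidence interval 1.74 to 2.17) was just short of the fold of 2, and the intervals of NDUFS6 and NDUFV3 overlapped. NDUFV3 was also the only member with more than 1 unigene. The shorter one, contig_41378 with 303 bp, was hit by 6 Yorkshire and 7 Shaziling reads. Its ratio of 1.40 had an interval of 0.403 to 5.04, too wide to give a direction.

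For the ubiquinone-reducing part, NDUFS3 and NDUFS8 were found, both core subunits kept from bacteria to mammals. NDUFS8, which holds iron-sulfur clusters on the way to ubiquinone, rested on 692 Yorkshire reads (RPKM 20.6) and 2211 Shaziling reads (RPKM 78.9), and the ratio was 3.83 (95% confidence interval 3.52 to 4.18). For NDUFS3, 1555 Yorkshire reads (RPKM 47.9) and 1627 Shaziling reads (RPKM 60.1) gave a ratio of 1.25 (95% confidence interval 1.17 to 1.35). Relative to the median of the named genes, the log2 ratio of NDUFS3 was -0.01, whereas NDUFS8 was 1.60 above it. Against the median of the 1069 genes, NDUFS3 lay at -0.29. The RPKM of NDUFS3 was 2.32 times that of NDUFS8 in Yorkshire and 0.761 times in Shaziling. NDUFS8 and NDUFV1, with ratios of 3.83 and 3.11, are close neighbors in the genome assembly Sscrofa11.1, with 7 protein-coding genes between them.

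The membrane arm was represented by NDUFB2, NDUFB5, NDUFB8 and NDUFB11, accessory subunits with membrane-spanning segments. In Shaziling, 3 of the 4 were called higher, beside 35.2% of the 1069 named genes. With totals that leave out the mitochondrial unigenes, 2 of the 4 were, beside 16.7%. NDUFB2 had the lowest Yorkshire level of all members, RPKM 7.58 from 142 reads, and reached 34.9 from 545 reads in Shaziling. Its ratio of 4.60 (95% confidence interval 3.82 to 5.58) was the highest among the members, with the widest relative interval of the 12 genes. NDUFB8, whose protein is often used as a marker of assembled complex I, went from 513 reads (RPKM 22.3) for Yorkshire to 1839 (RPKM 95.8) for Shaziling, with a ratio of 4.30 (95% confidence interval 3.90 to 4.75). NDUFB8 ranked 7th in level among the members in Yorkshire and 2nd in Shaziling. The X-linked gene NDUFB11 showed RPKM 18.6 from 460 Yorkshire reads and 57.1 from 1176 Shaziling reads, which is a ratio of 3.07 (95% confidence interval 2.75 to 3.42).

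NDUFB5 stood apart from the other membrane arm genes. Its Yorkshire level was the highest of the 4, RPKM 31.7 from 808 reads, and its Shaziling level was 51.1 from 1085 reads, so that the ratio was 1.61 (95% confidence interval 1.47 to 1.77). The change of NDUFB8 was 2.67 times that of NDUFB5 (95% confidence interval 2.33 to 3.06), and the change of NDUFB2 was 2.86 times that of NDUFB5 (95% confidence interval 2.32 to 3.54). All 4 genes lay above the median of the named genes, by 0.35 for NDUFB5 and by 1.28 to 1.87 for the other three on the log2 scale.

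In complex II, SDHB was the only member whose interval lay wholly on the Yorkshire side of 1. SDHB, the iron-sulfur subunit that carries electrons from the flavin of SDHA to ubiquinone, drew 7609 Yorkshire reads (RPKM 180.0) and 3544 Shaziling reads (RPKM 100.6). The Yorkshire level was 1.79 times the Shaziling level (95% confidence interval 1.72 to 1.86), short of the fold of 2, and it passed that fold under each of the 4 other scalings. Relative to the median of the named genes its log2 ratio was -1.18, and 2.34% of the 640 named genes had a lower ratio. SDHC, a subunit of the membrane anchor that binds heme and ubiquinone, drew 1804 Yorkshire reads (RPKM 28.5) and 1996 Shaziling reads (RPKM 37.8). Its ratio of 1.33 (95% confidence interval 1.24 to 1.42) lay on the log2 scale at 0.07 relative to the median of the 640 named genes and at -0.21 relative to that of the 1069. SDHB was at 6.31 times the RPKM of SDHC in Yorkshire and at 2.66 times in Shaziling, and this proportion differed 2.38-fold between the libraries (95% confidence interval 2.20 to 2.56).

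**Figure D2:**
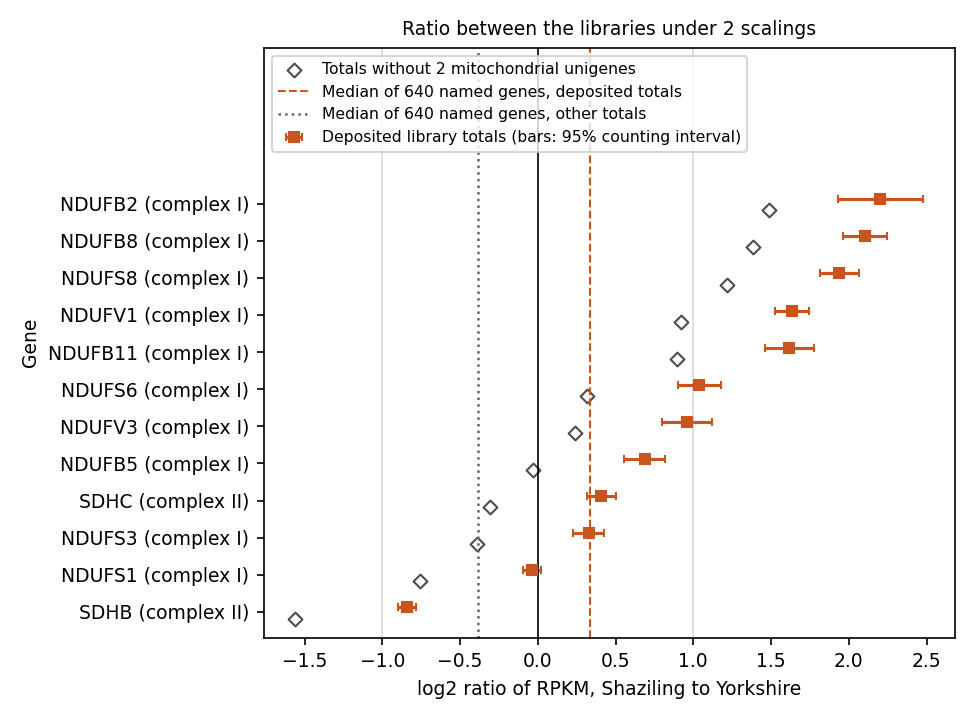
Log2 ratio of RPKM (Shaziling to Yorkshire) of the 12 genes, with deposited library totals (squares, bars are 95% counting intervals) and with totals that leave out 2 mitochondrial unigenes (diamonds), 1 library per breed. Dashed and dotted lines mark the median of 640 named genes under each scaling (0.34 and -0.38), pale lines the fold of 2; the order of the genes and their distances to these medians are the same under both.

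Most pairs of members differed in ratio by more than counting error. Of the 66 pairs among the 12 genes, 59 (89.4%) had ratios with intervals that did not overlap. Among pairs of 1892 other named genes with 142 to 7609 reads in both libraries, this share was 73.4%. These genes were matched to the members by the range of reads only, and intervals are narrower with more reads. The part of read number in the difference between the shares was not tested. The pairs with overlapping intervals joined genes of similar ratio, such as NDUFB2 with NDUFB8, NDUFB8 with NDUFS8, NDUFV1 with NDUFB11, and SDHC with NDUFS3. The levels of the 12 genes lay closer together in Shaziling than in Yorkshire. The SD of log2 RPKM over the members was 1.19 in Yorkshire and 0.66 in Shaziling, while over the 640 named genes it was 1.29 and 1.47, over the 1069 genes 1.52 and 1.40, and over all named genes 2.44 and 1.98. From the lowest to the highest member, RPKM spanned 23.8-fold in Yorkshire and 5.31-fold in Shaziling. SDHB alone held 38.7% of the summed RPKM of the members in Yorkshire and 14.4% in Shaziling. Without complex II, the SD over the 10 complex I genes was 0.89 in Yorkshire and 0.64 in Shaziling. A smaller SD in Shaziling was not particular to the members among the mitochondrial lists described below. In Yorkshire and Shaziling it was 0.92 and 0.77 over the NDUFA genes and 1.36 and 0.88 over the ATP synthase genes. Over the tricarboxylic acid cycle enzymes it was 0.97 and 0.55. The counted complex IV genes went the other way, with 0.55 and 0.73. The order of the members was partly kept between the libraries, with a Spearman's rho of 0.43 over 12 genes against 0.75 over the 640 named genes. These are values across genes of the same 2 libraries, and genes are not replicates.

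**Figure D3:**
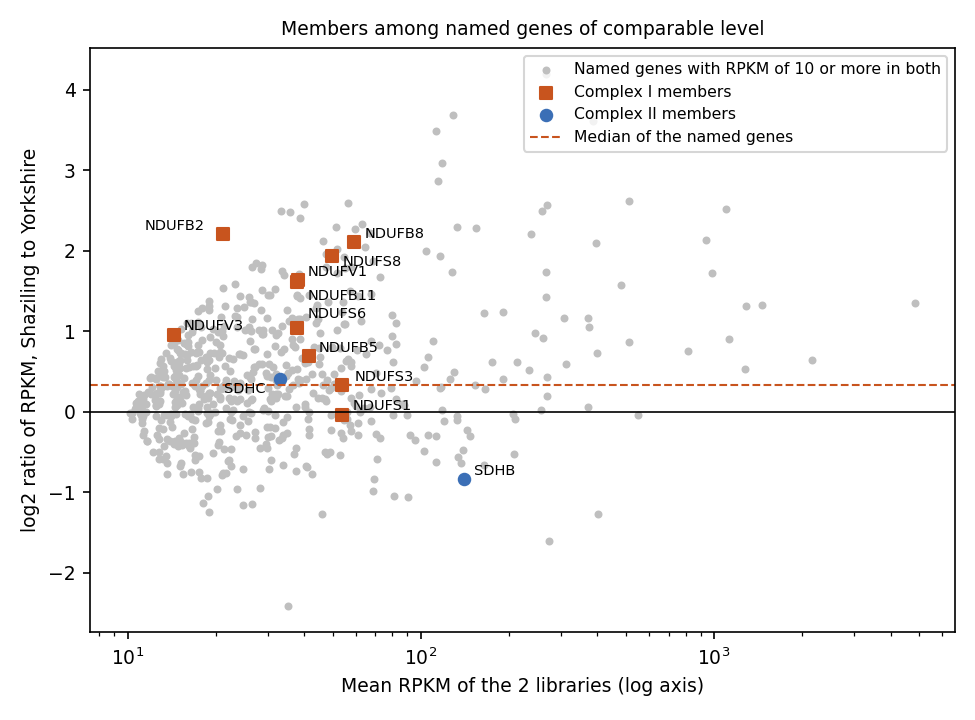
Mean RPKM of the 2 libraries (log axis) against the log2 ratio of RPKM (Shaziling to Yorkshire) for 640 named genes (gray) and the members (squares for complex I, circles for complex II). NDUFB2 and NDUFV3, with an RPKM under 10 in Yorkshire, are drawn but are not among the 640; the complex I genes lie from -0.04 to 2.20 and SDHB at -0.84, below the median of 0.34.

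Other genes of the same pathway were read from lists in the same way. Of 13 NDUFA genes of complex I, 10 had a unigene, 5 were called higher in Shaziling and 0 in Yorkshire, and the median log2 ratio was 0.78. Like those of the members, their ratios lay on both sides of 1. The RPKM of NDUFA11 was 11.98 for Yorkshire and 43.0 for Shaziling, that of NDUFA12, the most abundant, 116.7 and 95.6, and that of NDUFA5, which had the lowest ratio, 23.2 and 17.4. Of 18 nuclear genes of ATP synthase and its inhibitor, 6 were found and 3 called higher in Shaziling, with a median of 0.92. ATP5B, a catalytic subunit and the most abundant gene of this list, was at RPKM 144.7 for Yorkshire and 388.4 for Shaziling, a ratio of 2.68 that was called. ATP5L, a membrane subunit, was at RPKM 21.2 for Yorkshire and 74.0 for Shaziling, and ATPIF1, the inhibitor, at 124 and 115. For complex IV, 2 of 15 nuclear genes were found by the listed symbols (COX6A1 and COX7A2). Their median was 0.98, and 1 of them was called higher in Shaziling. COX6B, an older symbol of the listed COX6B1, and COX8H, a symbol not on the list, were not counted. Their mean RPKM over the 2 libraries was 164.1 and 129.1, and their log2 ratios were 1.22 and 3.68. The 2 counted genes had a lower mean RPKM, 8.28 and 15.9. With the mitochondrial unigenes left out of the totals, 1 NDUFA gene was called higher in Shaziling and 3 in Yorkshire. Of the ATP synthase genes 1, and of the 2 counted complex IV genes 0, were called higher in Shaziling. The medians of the NDUFA and ATP synthase lists were 0.06 and 0.20.

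Genes that build the complexes or deliver electrons to ubiquinone were read as well. Of 26 assembly factors of complexes I to III, 6 were found by the listed symbols, all at an RPKM under 10. Of these 6, 3 were called higher in Shaziling, and their median log2 ratio was 1.11. UQCC, an older symbol of the listed UQCC1, was not counted. It had a mean RPKM of 32.5 over the 2 libraries and a log2 ratio of 0.98. NDUFAF4, the most abundant of the 6, was at RPKM 8.15 for Yorkshire and 6.09 for Shaziling. Of 9 carriers and other donors to ubiquinone, 4 were found (median 0.88) and 2 called higher in Shaziling, among them ETFB, a subunit of the electron transfer flavoprotein, with 21.1 and 56.2. Of 13 genes for enzymes of the tricarboxylic acid cycle, in which SDHB and SDHC also act, 6 were found and 2 called higher in Shaziling. Their median was 0.41. Without the mitochondrial unigenes in the totals, 0 of the counted assembly factors, carriers and cycle enzymes were called higher in Shaziling and 1 assembly factor in Yorkshire. The medians of these lists were then 0.39, 0.16 and -0.31. Citrate synthase (CS), the most abundant gene of the cycle list, was at RPKM 85.4 for Yorkshire and 90.1 for Shaziling. IDH3G, a subunit of isocitrate dehydrogenase, had the largest ratio of this list, 2.43. Of 11 regulators of mitochondrial biogenesis, 2 were found, with a median of 1.24. ESRRA, a nuclear receptor that acts on many of these genes, had 3.99 and 18.4, a ratio of 4.63 that was called higher in Shaziling, and TFAM, which packages mitochondrial DNA, had 8.25 and 9.96. Under the deposited scaling, 0 genes of these lists were called higher in Yorkshire.

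**Figure D4:**
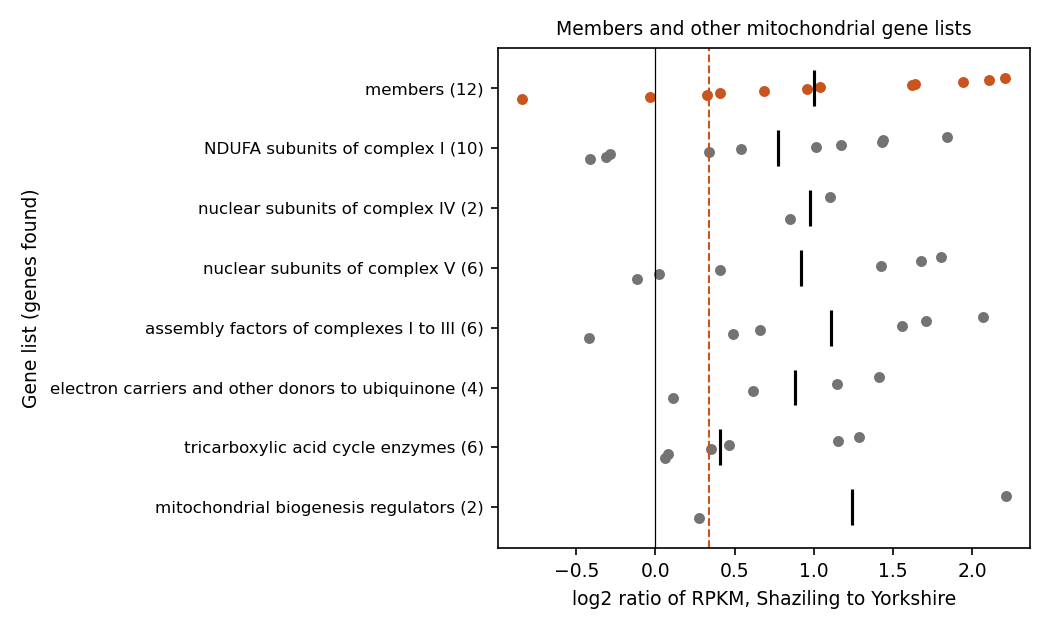
Log2 ratio of RPKM (Shaziling to Yorkshire) of single genes (points) in the 12 members and in each further mitochondrial list, with the number of genes counted in parentheses and the median as a black bar. The dashed line is the median of 640 named genes (0.34); the members run from -0.84 to 2.20 and the NDUFA genes from -0.41 to 1.84.

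The unigenes named for mitochondrial DNA genes had the higher level in Yorkshire. They are 11617 bp (contig_3) and 3670 bp (contig_45) long, more than the single gene each is named for. Their values are therefore not levels of single subunits. The unigene contig_3, named for NADH dehydrogenase subunit 5 of complex I, had an RPKM that was 81.3 times the summed RPKM of the 12 members in Yorkshire and 13.9 times in Shaziling. For contig_45, named for NADH dehydrogenase subunit 1, the sums were exceeded 14.8 and 2.24 times. The median log2 ratio of the members lay 2.96 above that of contig_3 and 3.14 above that of contig_45, whatever the scaling.

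All 12 representative unigenes were long enough to hold the coding sequence of the matched protein. The table gives a number after each match, which was read here as the length of the matched protein in residues; it was the same for every unigene of a protein in all 1884 proteins with more than 1 unigene. On this reading the unigenes were longer than the coding sequence by 120 bp (NDUFB8) to 1357 bp (SDHC). Higher ratios of Shaziling to Yorkshire were found for shorter unigenes among the members, with a Spearman's rho of -0.62 between log2 ratio and unigene length over 12 genes. Over the 640 named genes rho was -0.08. NDUFB2 (552 bp) and NDUFB8 (678 bp) had the shortest unigenes and the highest ratios, and NDUFS1 (2668 bp) had the longest unigene. The lowest ratio was not at the longest unigene. SDHB, with that ratio (0.559), had 1245 bp, less than NDUFV1 with 1516 bp and a ratio of 3.11.

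The labelled tissue was checked with marker genes of muscle fibers, which were present in both libraries. Of 12 fast fiber markers 6 were found, with a summed RPKM of 6396 in Yorkshire and 15130 in Shaziling, and 4 were called higher in Shaziling. Their most abundant gene was MYH4, a myosin heavy chain with near-identical paralogs, so its level is uncertain. Of 11 slow fiber markers 3 were found, with a sum of 667 and 906 and MYL3 the most abundant in the mean; 1 was called higher in each library. Markers of other cells also differed between the libraries. The 3 of 6 erythroid markers that were found summed to RPKM 18.9 for Yorkshire and 212.6 for Shaziling, and all 3 were called higher in Shaziling. Of these, HBM was called on 0 reads in Yorkshire and 7 in Shaziling, with 3 reads set in place of 0 for its ratio. The sums were 27.5 and 52.1 for adipocyte markers (2 of 9 found, 1 called higher in Shaziling) and 35.2 and 58.5 for endothelial markers (3 of 6, 1 called). They were 35.2 and 76.1 for leukocyte markers (2 of 7, both called) and 721 and 685 for fibroblast markers (4 of 6, 0 called). The adipocyte call rested on 8 Yorkshire and 28 Shaziling reads, and 1 of the leukocyte calls on 1 and 9 reads. Without the mitochondrial unigenes in the totals, 2 fast fiber, 2 erythroid, 1 slow fiber and 1 endothelial marker were called higher in Shaziling, 0 adipocyte and 0 leukocyte markers were, and 2 fibroblast markers and 1 slow fiber marker were called higher in Yorkshire. The part of these cells in the differences above was not tested.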

How the data were processed

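The authors sequenced LM RNA as paired-end reads on an Illumina HiSeq instrument, assembled the trimmed reads de novo with CLC Genomics Workbench and matched the unigenes to UniProt and nr with BlastX. Read counts were deposited as whole numbers with no scaling, and the counting program is not given in the sources used here. The authors obtained RPKM with Qualimap, and library totals were computed back from these values. Unigene lengths were deposited in bp. The submitters' processing notes also name a mouse genome build, CASAVA and TopHat2, and no coordinates were taken from them. The header lacks a separator, and its names were read in sequence. The mitochondrial unigenes were named from the study's annotation.

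Protein accessions, without version, were matched to pig RefSeq genes (Sscrofa11.1). Older symbols were searched for ATP synthase genes but not for COX6B1 and UQCC1. A replicate model could not be fitted to 1 library per breed. Instead, an exact two-sided binomial test (Benjamini-Hochberg over 65535 unigenes) was used with Clopper-Pearson intervals, and exact conditional intervals for ratios of ratios. The test was also run on simulated Poisson counts without spread between pigs, which cannot show how it behaves where pigs differ. The members, lists and tests were chosen with earlier results of these data known. All members are described. Of other pathway lists, the most abundant gene and those with the highest and lowest ratio at a mean RPKM of 10 or more could be named, and of marker lists the most abundant gene and markers at 0 reads. COX6A1, COX6B, COX8H, UQCC and TFAM fall outside this rule and were named after their values were seen. Alternatives concerned thresholds, scaling, choice of unigene, filters and pseudocounts. Computations used scipy 1.17.1 and numpy 2.4.6 with pandas 2.3.3 in Python 3.11.15, and TMM factors came from edgeR 4.0.16 in R 4.3.3.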

Additional observations from a re-analysis of the deposited data

How the results depend on the processing

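The direction and calls of all 12 members were the same with the longest unigene, with the reads of all unigenes of a gene summed, and with pseudocounts of 0.1 and 1. The results moved with the scaling of the libraries. The median log2 ratio of the members (0.998 as deposited) was 0.57 with the same RPKM sum in each library, 0.64 with the median log2 ratio set to 0, 0.56 with TMM scaling and 0.28 with library totals without the mitochondrial unigenes. Under each of these 4 scalings, and with a fold threshold of 1.5, 1 member (SDHB) was called higher in Yorkshire, beside 6.82% to 14.9% of named genes. With totals without the mitochondrial unigenes 3 members were called higher in Shaziling, beside 17.2% of named genes. With each other alternative 5 to 8 members were, beside shares from 2.65% (rounded RPKM values) to 46.6% (fold of 1.5, with 8 members). The share of 2.65% is no like background, since most named genes had a lower RPKM than the members. The log2 ratio of NDUFS3 became -0.10 with the same RPKM sum, -0.026 with the median at 0, -0.11 with TMM scaling and -0.39 without the mitochondrial unigenes. That of SDHC became -0.024 with the same RPKM sum, -0.032 with TMM scaling and -0.31 without the mitochondrial unigenes, and that of NDUFB5 -0.031 without them. By construction a scaling adds the same amount to every log2 ratio. The scalings by RPKM sum, by median and by TMM used only the unigenes in the table. No paired analysis was possible because each breed has 1 library. Leaving out a replicate was not possible for the same reason. Intervals cover counting error only, and the spread between pigs is not known.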
